A study of Rattus norvegicus with 12 samples.

Results

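The cell cycle in rat liver was followed through 40 genes, 20 that act at entry into G1 and in DNA replication and 20 that act from the S and G2 phases into mitosis. The members are a list of gene symbols that was looked up by name in the deposited count tables. No measured value enters that rule, but the list was drawn up with earlier results of these data known. Of the 40, 39 had a row among 16558 genes, and the expression of Ccnb2 was not analysed here. A filter on low counts left 36 members for testing, 18 of each module. Cdc6, which loads the replicative helicase, did not pass it, with between 0 and 11 counts per library. Nor did Rrm2, the S phase subunit of ribonucleotide reductase, with 0 to 5 counts and 8 libraries at 0, or Aurkb, the kinase of the chromosomal passenger complex, with 1 to 24 counts.

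Liver RNA of Sprague Dawley rats, an outbred laboratory stock, was sequenced in 4 groups of 3 libraries. The normal group was given saline. Rats of the model group ate a high-fat diet over 8 weeks, a way to bring about non-alcoholic fatty liver disease. Both remaining groups had the high-fat diet and were treated with didymin, a citrus flavonoid, at a lower or a higher dose. They are named arm D and arm G by the letters of their columns, which no label pairs with a dose. Columns of letter M were taken as the model because all deposited tables share them. Those of letter N, set against M, were taken as the normal group, which the sample titles call wt. The labels give no age or sex, and do not say whether a library is 1 animal or a pool.

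Most hepatocytes of an adult liver are quiescent. When a growth signal arrives, D-type cyclins with Cdk4 inactivate the retinoblastoma protein, which frees E2F factors to switch on cyclin E and the replication genes. The Mcm2 to Mcm7 helicase is then loaded at origins and fires in S phase. Later, the B-Myb and FoxM1 programme switches on cyclin B, Cdk1, the spindle motors and the checkpoint and exit factors, and their transcripts are low or absent in cells that do not divide.

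Total counts ran from 12469914 to 15521648 per library. The 13 genes of the mitochondrial genome took 44.1% of the counts in the model library M.6 and 61.0% in the arm G library G.3, against 3.85% to 18.8% in the other 10, which left 7173229 and 4869054 nuclear counts there. M2.1 is named unlike the other model libraries, M.5 and M.6, and the labels do not say why. All 11 hepatocyte markers on the list, such as Alb and Hnf4a, had counts in every library, although their summed level was lowest in M.6 and G.3. The members with a row together held 1496 to 4249 counts per library, and those of mitosis only 255 to 683, so their counting error was large. Levels are given as CPM, counts per 1000000 counts of the library size scaled by TMM, and values of 3 libraries follow the order N.1, N.2 and N.3, then M.5, M.6 and M2.1, then D.1, D.4 and D.7, then G.1, G.3 and G.4. In the comparison of the model with normal liver, a pair of such triplets gives normal liver first and the model second. Since the libraries are of whole liver, fewer cells of a type and less RNA per cell cannot be told apart. How many of all genes lack overlap between a given pair of groups was not counted. Such a separation therefore only describes a gene. Fold changes are on the log2 scale with their standard error (SE), from 1 edgeR quasi-likelihood fit of all 12 libraries, with p-values adjusted over 12355 genes.

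**Figure D1:**
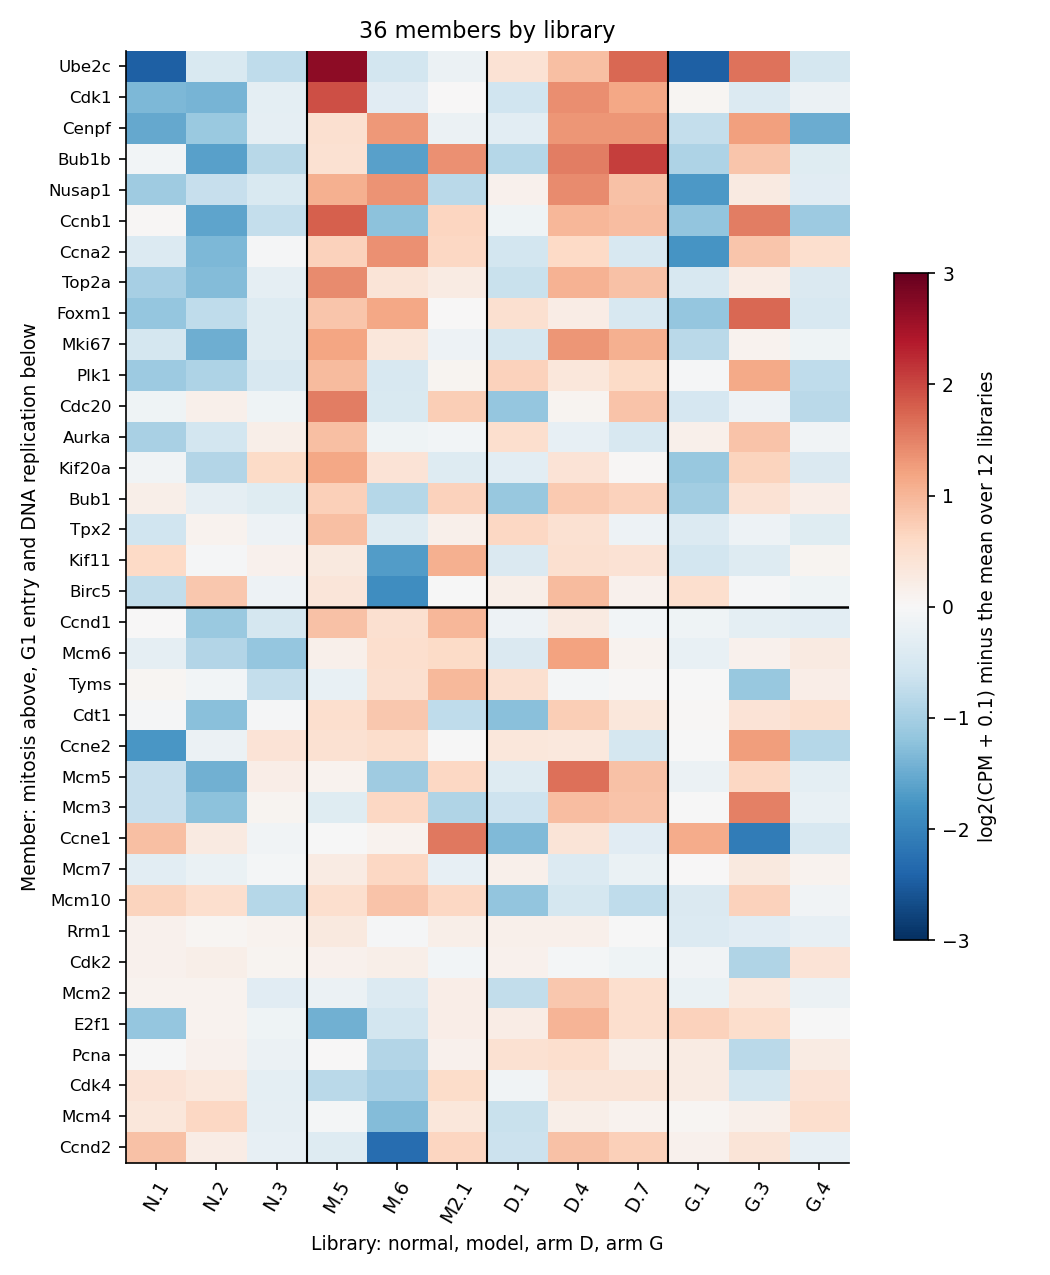
Heat map of the 36 members that were tested (rows) in the 12 libraries (columns), coloured by log2(CPM + 0.1) minus the gene's own mean over the libraries. The mitosis rows above the black line are red most often in M.5, D.4 and D.7, and next in G.3. Of the 18 G1 and replication rows below it, D.4 and M2.1 were each among the 4 highest libraries for 11. M.6 was among them for 9, G.3 and G.4 each for 7, and M.5 and D.7 each for 6.

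Between the high-fat-diet model and normal liver, mitosis members mostly had positive fold changes, and cyclin D1 was the member with the smallest p, but none passed after adjustment. Ccnd1 encodes cyclin D1, the D-type cyclin that liver cells make in answer to growth signals. It stood at 42.3, 19.3 and 29.2 CPM in the normal libraries and at 77.4, 58.7 and 83.5 CPM in the model libraries. All 3 model libraries lay above all 3 normal ones. Group means were 30.3 ± 11.5 CPM (SD, n = 3) in normal liver and 73.2 ± 12.9 CPM (SD, n = 3) in the model. The log2 fold change was 1.27 ± 0.29 (SE), with an unadjusted p of 0.000719 and an adjusted p of 0.444 by edgeR. DESeq2 called Ccnd1 in this comparison, at a log2 fold change of 1.27 and an adjusted p of 0.0171, and it was the only member that any of the 20 alternatives called. In the authors' deposited table its adjusted p was 0.128. Leaving out both libraries of high mitochondrial share gave a log2 fold change of 1.41, and leaving out M2.1 gave 1.16.

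edgeR called 0 of 12355 genes (0%) in the model against normal, DESeq2 called 42 and limma-voom 0. Before adjustment, 372 genes (3.01%) had a p under 0.05 with the model higher and 235 (1.9%) with it lower. By the same measure 6 of the 36 tested members were higher and 0 lower. They were Ccnd1, Mcm6, Top2a, Cdk1, Mki67 and Nusap1. That count was 1 with N.2 left out, 3 with N.1, 2 with M.5 and 10 with G.3. Over all genes, 2.26%, 2.6%, 3.65% and 9.79% were under 0.05 in these fits, in both directions together. Single libraries thus set how many members, and how many of all genes, fall under 0.05.

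Among the other G1 regulators no member stood out in the model. Cyclin D2, cyclin E1 and E2, Cdk2 and E2f1, the transcription factor that D-type cyclin activity sets free, all had overlapping groups and log2 fold changes between −0.60 and 0.64. Cdk4, the kinase partner of cyclin D1, stood at 22.5, 20.97 and 13.8 CPM in normal liver and 9.56, 8.46 and 24.9 CPM in the model. Its model libraries lay on both sides of the normal ones, M2.1 above and the others below, and the log2 fold change was −0.41 ± 0.41 (SE, unadjusted p = 0.335). That value was −1.09 without M2.1, −0.15 without M.6 and −0.19 without M.5. E2f1 stood at 0.320, 0.901 and 0.746 CPM and 0.243, 0.540 and 0.976 CPM, which is 3 to 18 counts in these 6 libraries. The sum over the 20 G1 and replication members was 131 ± 17.8 CPM (SD, n = 3) in normal liver and 178 ± 23.4 CPM in the model, and without Ccnd1 the sums were 101 ± 11.5 and 104 ± 11.9 CPM. The model's higher sum was thus held by Ccnd1, while the other members together differed by less than the spread between libraries.

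The helicase subunits of the replication origin were uneven. Mcm6 stood at 1.60, 1.02 and 0.820 CPM in normal liver and 2.19, 2.79 and 2.93 CPM in the model. Its groups did not overlap, and the log2 fold change was 1.19 ± 0.49 (SE, unadjusted p = 0.0304, adjusted p = 0.866 by edgeR). Mcm4, another subunit of the same ring, stood at 4.99, 6.01 and 3.21 and 3.73, 1.53 and 4.99 CPM, with overlapping groups and a log2 fold change of −0.46 ± 0.44 (SE) that was −0.12 without M.6, −0.26 without N.2 and −0.85 without M2.1. Mcm2, Mcm3, Mcm5 and Mcm7 had log2 fold changes between −0.08 and 0.58, all with overlapping groups. Summed over Mcm2 to Mcm7, the level was 24.5, 25.1 and 24.9 CPM in the normal libraries and 29.3, 32.7 and 28.3 CPM in the model libraries, so the sums did not overlap between these groups. Cdt1, which loads the ring, and Mcm10, which helps the loaded helicase fire, had log2 fold changes of 0.71 ± 0.66 and 0.43 ± 0.41 (SE). Pcna, the sliding clamp of DNA polymerase, stood at 14.9, 16.6 and 13.3 CPM and 15.3, 8.19 and 16.5 CPM. Its lowest model value was that of M.6, and the groups overlapped. Rrm1, the large subunit of ribonucleotide reductase, and Tyms, which makes thymidylate, had log2 fold changes of 0.06 ± 0.21 and 0.72 ± 0.45 (SE). Over the 18 G1 and replication members tested, 11 were higher and 7 lower in the model, with a median log2 fold change of 0.43 against 0.03 over all genes tested. That median was between 0.09 and 0.28 when any one of M2.1, M.6 or the normal libraries was left out.

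Of the 18 mitosis members tested, 17 were higher in the model and 1, Birc5, was lower. The median log2 fold change was 1.46, and 1.33 when the 19 members with a row were fitted without a filter. Without M.5 the median was 0.82. Fitted on the normal and model libraries alone it was 0.71, but only 28 of the members of both modules passed the filter there. Cdk1 and Nusap1 did not pass, while Top2a and Mki67 had log2 fold changes of 1.68 and 1.36 in that fit. A member can pass the filter on low counts through the group in which it is high, so these medians describe the members that could be tested and are no evidence for the set. The same holds for the counts and medians of mitosis members in the comparisons below.

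Top2a, the topoisomerase that untangles sister chromosomes, stood at 0.768, 0.601 and 1.34 CPM in normal liver and 4.54, 2.16 and 1.95 CPM in the model. Every model library lay above every normal one, with M.5 at more than the other model libraries. The log2 fold change was 1.67 ± 0.58 (SE, unadjusted p = 0.0131, adjusted p = 0.866 by edgeR), and 1.18 without M.5. Mki67, the coat protein of mitotic chromosomes that serves as the usual marker of proliferation, stood at 1.34, 0.661 and 1.49 CPM and 4.62, 2.52 and 1.79 CPM. Its groups did not overlap, the log2 fold change was 1.35 ± 0.58 (SE, unadjusted p = 0.037), and it was 0.88 without M.5. Cdk1, the kinase that drives entry into mitosis, stood at 0.128, 0.120 and 0.373 CPM and 2.11, 0.360 and 0.488 CPM, or 2, 2 and 5 counts and 26, 4 and 9 counts. M.6 lay below N.3 and M.5 stood far above both other model libraries. The log2 fold change was 2.23 ± 0.88 (SE, unadjusted p = 0.0258), and 1.05 without M.5. Nusap1, which binds spindle microtubules, stood at 0.256, 0.361 and 0.447 CPM and 1.46, 1.80 and 0.325 CPM, and here M2.1 was at the normal level. Its log2 fold change was 1.71 ± 0.78 (SE, unadjusted p = 0.0471).

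The remaining mitosis members spread in the same way. Foxm1, the transcription factor of the G2 and M genes, Ccna2, the cyclin of S phase and G2, Cenpf, a kinetochore protein, and Plk1, a kinase of the spindle and centrosome, also had model libraries above all normal ones. Their log2 fold changes lay between 1.32 and 1.98, with unadjusted p between 0.0501 and 0.0754. For Plk1 the gap was 0.450 CPM in M.6 (5 counts) against 0.447 CPM in N.3 (6 counts), so it rests on the scaling of M.6. For Cenpf it was 6 counts in M2.1 against 4 in N.3. How many of all genes have model libraries above all normal ones was not counted. Ube2c, the ubiquitin-conjugating enzyme of the anaphase-promoting complex, stood at 0, 0.300 and 0.224 CPM in normal liver and 3.40, 0.270 and 0.380 CPM in the model. Its log2 fold change of 2.88 ± 1.37 (SE) had M.5 far above the rest, while M.6 and M2.1 lay near the normal values. Ccnb1, the regulatory cyclin of Cdk1, Bub1 and Bub1b of the spindle checkpoint, Cdc20, which turns on the anaphase-promoting complex, Aurka, a centrosome kinase, and its activator Tpx2 had overlapping groups and log2 fold changes between 0.53 and 1.94. The spindle motors Kif20a and Kif11 had overlapping groups too, at 0.59 ± 0.61 and 0.06 ± 0.61 (SE). Birc5, the survivin subunit of the passenger complex, had a log2 fold change of −0.36 ± 0.67 (SE), and its lowest value in any library was that of M.6.

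**Figure D2:**
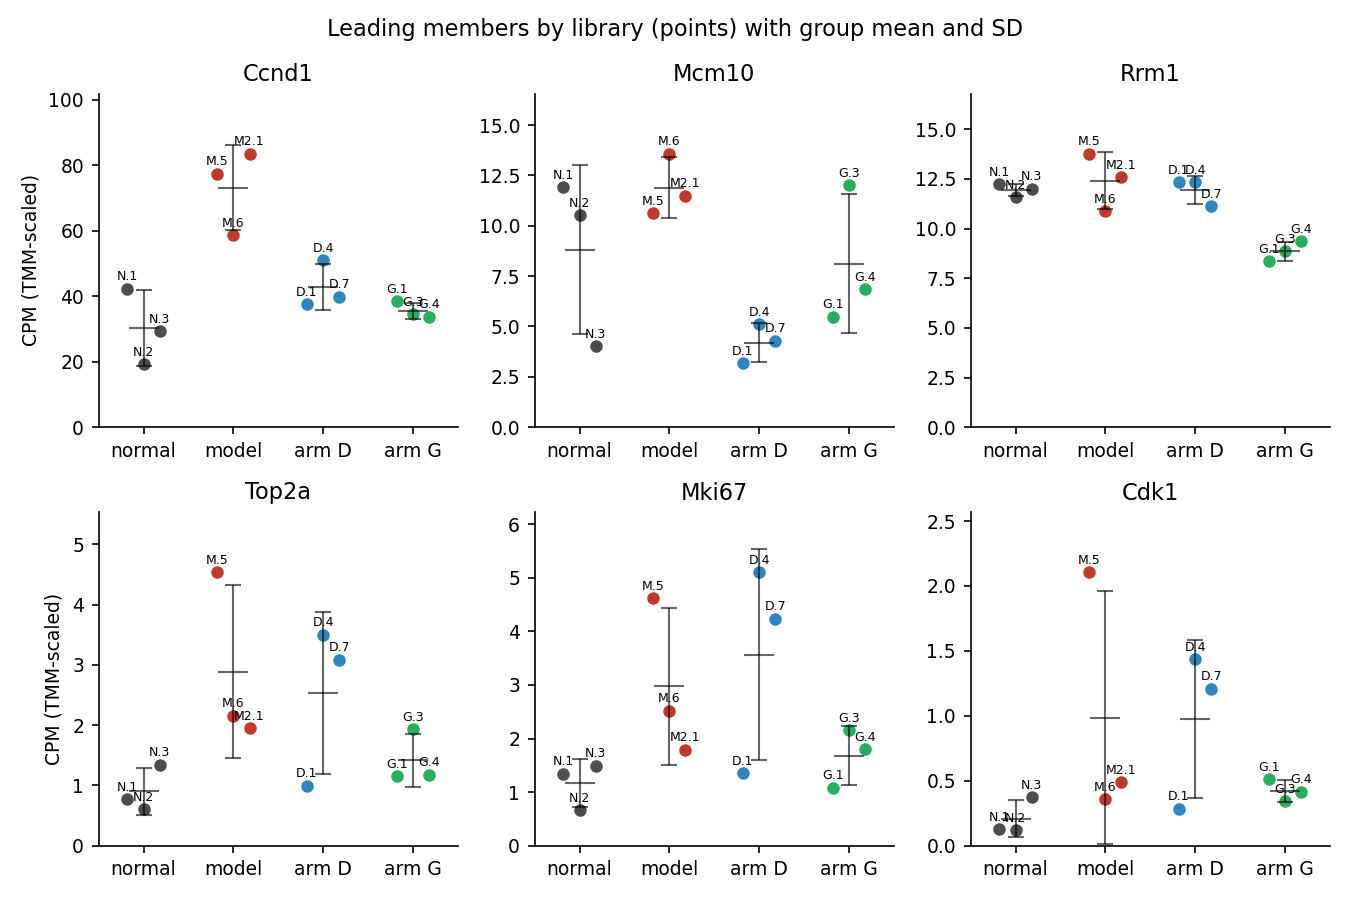
Level of 6 members in each library (points, labelled) in CPM, by group, with a horizontal line for the group mean and a vertical bar for ± SD. Ccnd1 is higher in the 3 model libraries than in any other, Rrm1 is lower in the 3 arm G libraries than in any other, and for Top2a, Mki67 and Cdk1 the libraries M.5, D.4 and D.7 are the highest.

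Promoters of members from both modules are shown so that the short motifs known for each module can be read in them. Sequences are from RefSeq (build GRCr8), 250 bases before the gene's start, 5′ to 3′ on the gene's strand. Capitals mark CCAAT, which factor NF-Y binds, TTTGAA, the core of the cell cycle homology region that the DREAM and FoxM1 complexes use, and the E2F-type letters TTTCGCGC, TTTGGCGC or TTTCCCGC, each searched on both strands, so that ATTGG and TTCAAA are the first pair read on the other strand. The mitosis members printed are Top2a (chr10:84473094-84473343, minus strand), Cdk1 (chr20:19265043-19265292, plus strand) and Cdc20 (chr5:137255800-137256049, minus strand). The replication members printed are Mcm6 (chr13:42404353-42404602, minus strand) and Mcm10 (chr17:78175137-78175386, plus strand).
Top2a: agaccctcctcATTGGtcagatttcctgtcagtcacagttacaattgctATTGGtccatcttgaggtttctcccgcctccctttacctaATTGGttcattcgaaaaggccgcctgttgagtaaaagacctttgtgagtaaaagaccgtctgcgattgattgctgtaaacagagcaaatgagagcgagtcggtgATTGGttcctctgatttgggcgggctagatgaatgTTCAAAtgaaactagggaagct
Cdk1: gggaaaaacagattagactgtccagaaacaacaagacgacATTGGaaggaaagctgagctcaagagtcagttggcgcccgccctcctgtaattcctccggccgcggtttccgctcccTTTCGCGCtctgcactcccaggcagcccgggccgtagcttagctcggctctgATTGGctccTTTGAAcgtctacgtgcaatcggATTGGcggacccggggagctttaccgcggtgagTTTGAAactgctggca
Cdc20: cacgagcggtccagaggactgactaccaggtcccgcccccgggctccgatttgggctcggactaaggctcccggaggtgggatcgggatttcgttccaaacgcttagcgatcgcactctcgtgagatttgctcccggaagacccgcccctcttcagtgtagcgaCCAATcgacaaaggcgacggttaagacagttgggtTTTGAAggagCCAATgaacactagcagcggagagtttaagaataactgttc
Mcm6: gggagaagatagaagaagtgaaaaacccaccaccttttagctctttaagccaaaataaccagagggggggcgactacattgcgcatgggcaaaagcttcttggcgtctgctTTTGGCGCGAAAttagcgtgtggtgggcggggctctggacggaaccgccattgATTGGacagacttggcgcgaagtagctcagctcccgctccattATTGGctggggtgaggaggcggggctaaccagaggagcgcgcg
Mcm10: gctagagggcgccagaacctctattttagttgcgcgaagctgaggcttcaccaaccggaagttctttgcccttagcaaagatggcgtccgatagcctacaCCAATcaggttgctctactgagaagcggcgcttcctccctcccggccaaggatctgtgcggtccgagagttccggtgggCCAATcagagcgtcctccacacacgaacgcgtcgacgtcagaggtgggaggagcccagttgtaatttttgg

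All 5 of these windows hold CCAAT on one strand or the other. TTTGAA stands 22 bases before the start in Top2a, 16 and 72 bases before it in Cdk1 and 51 bases before it in Cdc20, while the windows of Mcm6 and Mcm10 hold none. The windows of the mitosis members Nusap1 and Ccnb1, which are not printed, hold no TTTGAA either. In Mcm6 a match to TTTGGCGC on the gene's strand overlaps a match to TTTCGCGC on the other, and Cdk1 also holds TTTCGCGC. RefSeq windows were matched for 15 mitosis members, Ccnb2 included, and 13 G1 and replication members, among them neither Ccnd1 nor Foxm1. TTTGAA was in 6 of the 15 mitosis windows (40%), in 1 of the 13 G1 and replication windows (7.69%) and in 16.2% of all 33469 windows of that length. CCAAT was in 12 of 15 (80%), 8 of 13 (61.5%) and 34% of all windows. One of the 3 E2F-type motifs was in 1 of 15 (6.67%), 5 of 13 (38.5%) and 1.41% of all windows. These are letter matches in a fixed window, and binding was not measured.

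Within the model group the mitosis members were high in M.5 first of all. Of the 18 tested, M.5 was among the 4 highest of the 12 libraries for 15 and was the highest for 8. M.6 was among the 4 highest for 7 and among the 4 lowest for 8, and M2.1 was among the 4 highest for 6. Summed over the 19 mitosis members, the level was 16.3, 17.1 and 23.9 CPM in the normal libraries and 55.3, 26.4 and 28.8 CPM in the model libraries. All model sums lay above all normal sums. Aurka took a large part of each sum, and without it the sums were 12.3, 11.7 and 14.9 and 40.1, 18.98 and 21.3 CPM, again without overlap. These sums only describe a list drawn up with earlier results of these data known. The sums of the 48 other mitosis genes with a row, given below, did overlap.

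Markers of T and NK cells were read beside these sums. The summed level of the 10 of 12 markers with a row was 12.9, 13.3 and 23.7 CPM in normal liver and 40.2, 36.3 and 12.9 CPM in the model, high in M.5 and M.6 and at the normal level in M2.1. Of its 9 tested markers 9 were higher in the model, 0 of them at an unadjusted p under 0.05, and Cd8b was at 0 in 2 libraries. B and plasma cell markers summed to 16.4, 5.29 and 10.2 CPM and 26.9, 19.2 and 9.54 CPM. The 7 erythroid markers with a row summed to 348, 140.1 and 435 CPM and 533, 1251 and 243 CPM, most in M.6, with Rhag at 0 in 10 libraries. The 8 neutrophil and myeloid precursor genes summed to 3.78, 6.67 and 4.92 CPM and 6.72, 26.99 and 0.922 CPM, most in M.6. Of these genes S100a8 and S100a9 were tested, at 1.02 ± 0.98 and 1.2 ± 0.84 (SE), while Elane was at 0 in 11 libraries and Mpo and Prtn3 each in 9. The 11 Kupffer cell markers were all lower in the model, with sums of 747, 767 and 568 and 618, 281 and 404 CPM. The part of any of these cells in the levels of the mitosis members was not tested.

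**Figure D3:**
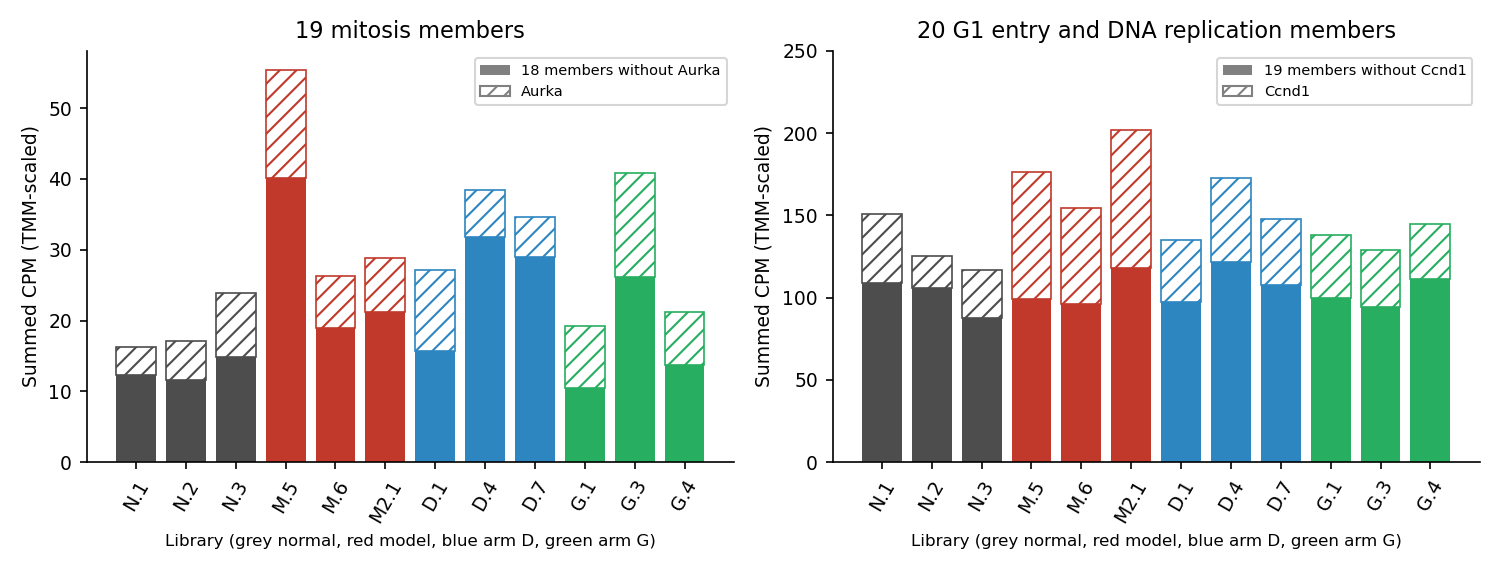
Summed CPM of the 19 mitosis members (left) and of the 20 G1 and replication members (right) in each library, with the hatched part of each bar for Aurka (left) or Ccnd1 (right), both axes starting at 0. The normal libraries, G.1 and G.4 hold the 5 lowest mitosis sums (16.3 to 23.9 CPM) and M.5 the highest (55.3 CPM), while the right bars without Ccnd1 are of similar height in all groups.

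Genes around the members were read from further lists. Of 23 other replication genes tested, 16 were higher and 7 lower in the model (median log2 fold change 0.35), and 2 were higher at an unadjusted p under 0.05. These were Tk1, thymidine kinase of the salvage pathway, at 0.67 ± 0.26 (SE), and Dut, which clears dUTP, at 0.58 ± 0.26 (SE). Of 30 other mitosis genes tested, out of 48 with a row, 24 were higher and 6 lower (median 0.67), and 3 were higher at that level. They were Prc1, the bundler of the spindle midzone, at 1.85 ± 0.71, Ckap2, a spindle protein, at 1.73 ± 0.68, and Cdca3, a trigger of mitotic entry, at 2.5 ± 1.10 (SE). Prc1 stood at 0.448, 0.120 and 0.522 CPM in normal liver and 1.62, 1.26 and 1.08 CPM in the model, with no overlap. The 48 other mitosis genes with a row summed to 88.7, 83.4 and 91.6 CPM in normal liver. In the model they summed to 117, 91.5 and 86.3 CPM, so these sums overlapped and only M.5 lay above all normal libraries.

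Of 17 cell cycle inhibitors and pocket proteins tested, 7 were higher and 10 lower in the model (median −0.23). Cdkn1a, the p21 inhibitor of cyclin-dependent kinases, stood at 36.8, 65.5 and 44.6 CPM and 88.9, 168 and 102 CPM. Its model libraries all lay above the normal ones, and the log2 fold change was 1.29 ± 0.54 (SE, unadjusted p = 0.0347, adjusted p = 0.866 by edgeR). Fbxo5, which holds back the anaphase-promoting complex, had one of 1.47 ± 0.66 (SE, unadjusted p = 0.0446). Of 14 p53 targets, a list that also holds Cdkn1a, 9 were higher and 5 lower (median 0.20), and Sesn1, a stress-induced sestrin, and Gadd45a, a growth arrest gene, had log2 fold changes of −0.88 ± 0.26 and −0.68 ± 0.26 (SE). Of 17 other cyclins, kinases and E2F factors, 10 were higher and 7 lower (median 0.13). Tfdp1, the dimer partner of E2F factors, was at 0.57 ± 0.23 and Ccng2, a cyclin of arrested cells, at −0.79 ± 0.29 (SE). Of 25 mitogens, receptors and early factors of liver growth, 7 were higher and 18 lower (median −0.18), with Erbb3, a receptor of the EGF receptor family, at −0.74 ± 0.26 (SE, unadjusted p = 0.0132). No gene of these lists passed after adjustment.

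**Figure D4:**
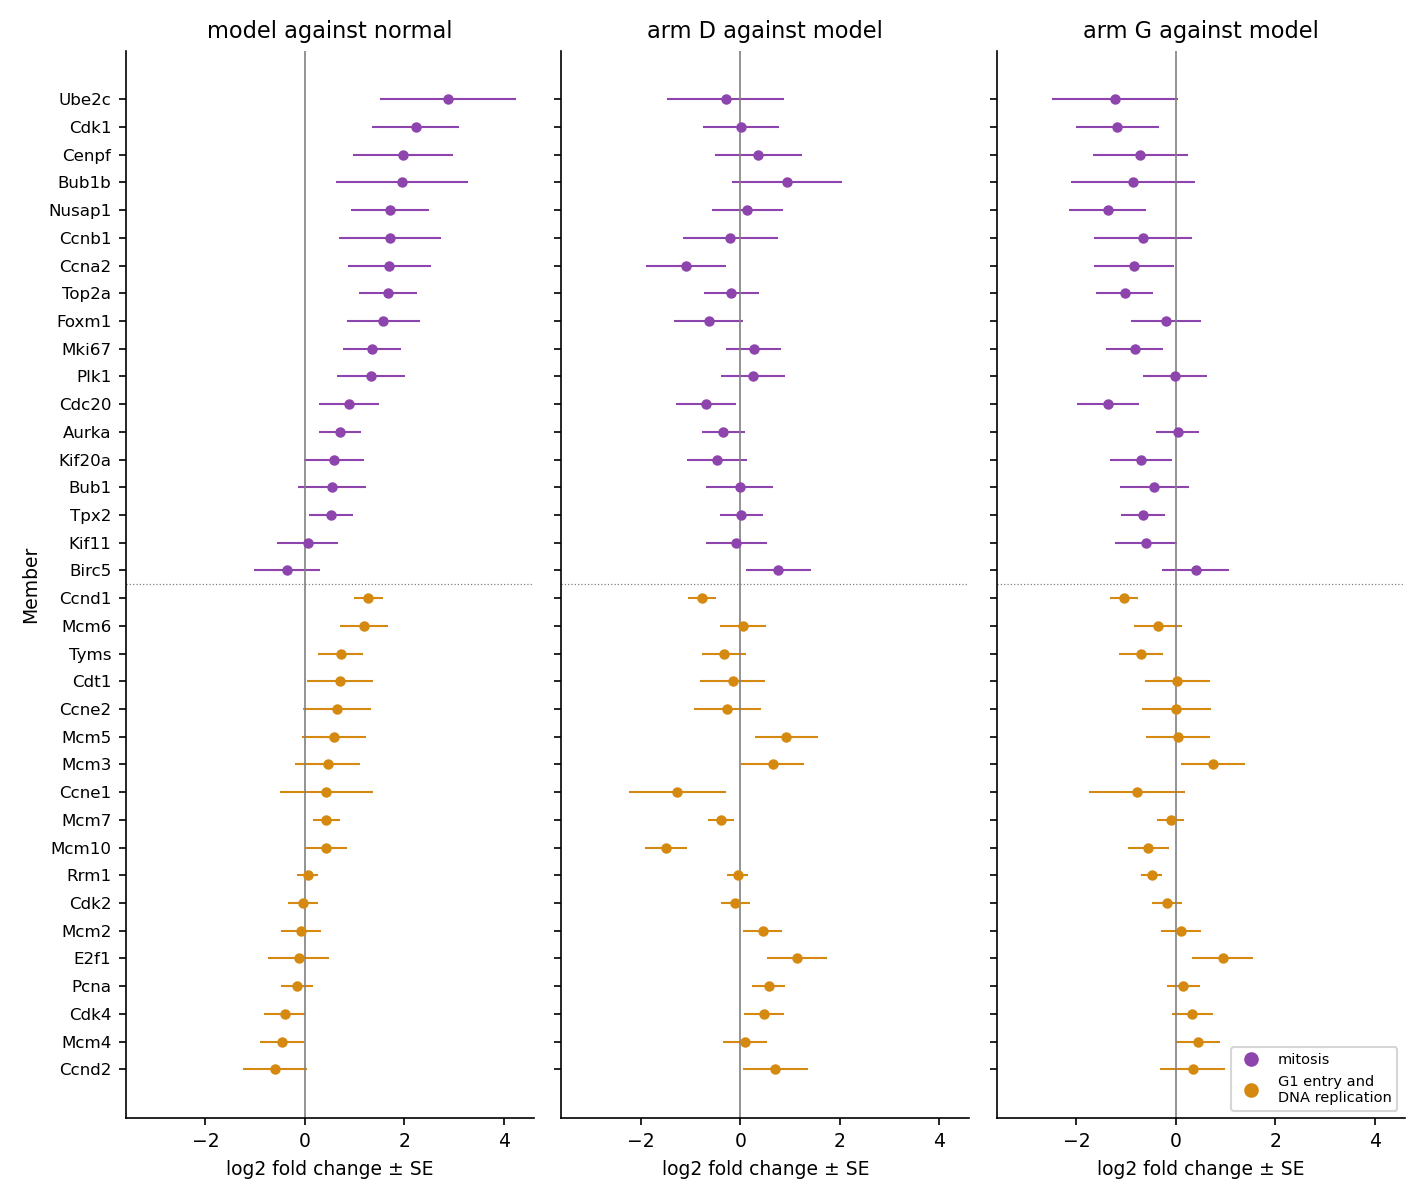
Log2 fold change ± SE of each of the 36 tested members (rows) in the model against normal, arm D against the model and arm G against the model, with mitosis members above the dotted line. In the left panel 17 of 18 mitosis members are above 0, in the middle panel 8 of 18, and in the right panel 2 of 18. The panels share the model libraries.

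Didymin arm D was next set against the model on the same diet. Ccnd1 and Mcm10 were lower in arm D, with no overlap between groups, while the mitosis members were divided between higher and lower. The share of all genes without overlap between these groups was not counted. Since the model libraries stand in every comparison described here but arm G against arm D, a high or low model value enters each with opposite sign to the model's own comparison, and the comparisons are not independent. Mcm10, the factor that lets the loaded helicase open DNA, stood at 10.6, 13.6 and 11.5 CPM in the model libraries and at 3.19, 5.11 and 4.30 CPM in arm D. All arm D libraries lay below all model libraries, but N.3, at 4.03 CPM, lay among them. The model mean was 11.9 ± 1.53 CPM (SD, n = 3) and the arm D mean 4.20 ± 0.960 CPM (SD, n = 3). The log2 fold change was −1.5 ± 0.42 (SE, unadjusted p = 0.00367, adjusted p = 0.783 by edgeR). In the authors' deposited table Mcm10 had a log2 fold change of −1.51 and an adjusted p of 0.041, the only one of 39 members under 0.05 there. Over the 20 alternatives its log2 fold change ran from −1.66 to −1.34, and none called it.

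Ccnd1 stood at 37.6, 50.9 and 39.9 CPM in arm D, a mean of 42.8 ± 7.14 CPM (SD, n = 3). These values lay below the 3 model libraries, and D.1 and D.7 lay within the range of normal liver. The log2 fold change was −0.77 ± 0.28 (SE, unadjusted p = 0.0175, adjusted p = 0.783 by edgeR). Mcm10 and Ccnd1 were the only members under an unadjusted p of 0.05, so 0 of 36 were higher and 2 lower. Over all 12355 genes edgeR called 0 (0%), DESeq2 called 14 and limma-voom 0, and 376 genes (3.04%) were higher and 400 (3.24%) lower before adjustment. The count of members was 1 with D.7 left out and 6 with M2.1 left out. Of all genes, 3.75% and 14.3% were under 0.05 in these fits, in both directions together.

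E2f1 and Pcna were the members nearest to the threshold with a higher level in arm D. E2f1 stood at 0.243, 0.540 and 0.976 CPM in model liver and at 0.993, 1.78 and 1.21 CPM in arm D, from 14 to 31 counts in the latter. The groups did not overlap, D.1 lying just above M2.1, and the log2 fold change was 1.14 ± 0.60 (SE, unadjusted p = 0.0828), which was 1.76 without M2.1 and 0.78 without M.5. Pcna stood at 20.8, 21.7 and 17.1 CPM in arm D, above all model libraries, with a log2 fold change of 0.57 ± 0.33 (SE, unadjusted p = 0.108) that was 0.32 without M.6. Over the 18 G1 and replication members 9 were higher and 9 lower in arm D, with a median log2 fold change of −0.0019 that was 0.29 without D.1. The Mcm2 to Mcm7 sum was 24.1, 36.9 and 31.5 CPM in arm D, with D.1 below all model libraries and D.4 above them.

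Of the 18 mitosis members 8 were higher and 10 lower in arm D, with a median log2 fold change of −0.05, where all genes had −0.04. Leaving out single libraries moved that median between −0.37, without M.6, and 0.33, without M.5. Top2a stood at 0.993, 3.5 and 3.09 CPM, Mki67 at 1.35, 5.11 and 4.24 CPM and Cdk1 at 0.284, 1.43 and 1.21 CPM. In all 3 genes D.4 and D.7 were high and D.1 was near the normal libraries. D.4 was among the 4 highest libraries for 12 of 18 mitosis members, D.7 for 12, and D.1 among the 4 lowest for 8. Of the 18 G1 and replication members, D.4 was among the 4 highest for 11 and D.7 for 6. Ccna2 was the mitosis member with the smallest p, at a log2 fold change of −1.09 ± 0.80 (SE, unadjusted p = 0.195). Its groups did not overlap either, D.4 at 0.746 CPM lying just below M2.1 at 0.759 CPM. The standard errors of Top2a, Mki67 and Cdk1 in this comparison were between 0.55 and 0.76, so an absence of difference is not shown.

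Kupffer cell markers were read beside the mitosis sums. Their sum was 558, 1661 and 1077 CPM in arm D, high in D.4 and D.7, against 618, 281 and 404 CPM in the model. Of the 11 markers 11 were higher in arm D, 10 of them at an unadjusted p under 0.05. The summed mitosis level was 27.1, 38.5 and 34.7 CPM in arm D and 55.3, 26.4 and 28.8 CPM in the model. T and NK cell markers summed to 38.3, 33.4 and 33.6 CPM in arm D. The normal libraries had Kupffer sums of 747, 767 and 568 CPM and mitosis sums of 16.3, 17.1 and 23.9 CPM. In arm G the Kupffer sums were 819.9, 382 and 771 CPM and the mitosis sums 19.3, 40.8 and 21.3 CPM. Endothelial markers summed to 192, 161 and 219 CPM in the model and 269, 288 and 317 CPM in arm D, and 7 of the 7 tested were higher, 4 of them at an unadjusted p under 0.05. The part of Kupffer or endothelial cells in the mitosis level was not tested.

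Around the members, few genes had an unadjusted p under 0.05 in arm D against the model. Btg2, an antiproliferative gene that growth signals and stress switch on early, stood at 61.7, 72.8 and 83.3 CPM in model liver and at 301, 121 and 169 CPM in arm D. Its groups did not overlap, and the log2 fold change was 1.44 ± 0.46 (SE, unadjusted p = 0.00861, adjusted p = 0.783 by edgeR). Of the 17 inhibitors and pocket proteins, 10 were higher and 7 lower (median 0.15). Fos, an immediate early transcription factor, had a log2 fold change of 2.08 ± 0.63 (SE, unadjusted p = 0.00637), and of the 25 mitogens and early factors 14 were higher and 11 lower (median 0.05). Tfdp1 was at −0.56 ± 0.23 and Ccnd3, the D-type cyclin best known from lymphoid cells, at 0.53 ± 0.23 (SE), with 9 of 17 other cyclins, kinases and E2F factors higher and 8 lower (median 0.07). The 23 other replication genes split into 11 higher and 12 lower (median −0.01), the 30 other mitosis genes into 14 and 16 (median −0.08), and the 14 p53 targets into 5 and 9 (median −0.18), with 0 under an unadjusted p of 0.05.

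In arm G against the model Ccnd1 was again lower without overlap, Rrm1 lay below its level in every other library, and mitosis members mostly had negative fold changes. Ccnd1 stood at 38.4, 34.5 and 33.7 CPM in arm G, a mean of 35.5 ± 2.49 CPM (SD, n = 3), which lies inside the range of the normal libraries. The log2 fold change was −1.04 ± 0.28 (SE, unadjusted p = 0.00306, adjusted p = 0.9997 by edgeR), and −1.15 without M.6 and G.3. The 3 model libraries lay above the 9 others in 36 of all genes tested (0.291%), and Ccnd1 was the only member among them.

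Rrm1 stood at 12.2, 11.6 and 12.01 CPM in normal liver, 13.8, 10.9 and 12.6 CPM in model liver, 12.3, 12.3 and 11.1 CPM in arm D and 8.37, 8.85 and 9.35 CPM in arm G. The arm G libraries lay below the 9 others, which was so of 24 genes (0.194%), and Rrm1 was the only member among them. Against the model the log2 fold change was −0.49 ± 0.21 (SE, unadjusted p = 0.0412, adjusted p = 0.9997 by edgeR), with a range of −0.57 to −0.41 over the 20 alternatives. The means were 12.4 ± 1.45 CPM (SD, n = 3) for the model and 8.86 ± 0.493 CPM (SD, n = 3) for arm G.

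Cdc20, whose promoter is printed above, stood at 4.21, 0.990 and 2.39 CPM in model liver and at 0.958, 1.25 and 0.762 CPM in arm G. M.6 lay among the arm G libraries, and the log2 fold change of −1.36 ± 0.62 (SE, unadjusted p = 0.0481) was −0.80 without M.5 and −1.91 without M.6 and G.3. Ccnd1, Rrm1 and Cdc20 were the members under an unadjusted p of 0.05, so 0 of 36 were higher and 3 lower. Over all genes edgeR called 0 (0%), DESeq2 called 5 and limma-voom 0, with 148 genes (1.2%) higher and 139 (1.13%) lower before adjustment. The count of members was 1 when any one of M.5, D.4, G.1, G.4 or a normal library was left out. In those fits 1.88% to 2.92% of all genes were under 0.05, in both directions together. The count was 5 without G.3 (7.31% of all genes) and 6 without M.6 and G.3 (4.67%).

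Of the 18 mitosis members 2 were higher and 16 lower in arm G, with a median log2 fold change of −0.71 where all genes had 0.00. Members could pass the filter through the model group, where they were high, so this count and median are no evidence for the set. The median was −0.21 without M.5, −0.34 without G.1, −1.29 without G.3 and −1.35 without M.6 and G.3. Top2a stood at 1.15, 1.93 and 1.18 CPM, below every model library, with a log2 fold change of −1.03 ± 0.57 (SE, unadjusted p = 0.0926). Mki67 stood at 1.09, 2.16 and 1.80 CPM and Cdk1 at 0.511, 0.340 and 0.416 CPM, both overlapping with the model. Nusap1 stood at 0.128, 0.794 and 0.485 CPM. Within the arm G.3 differed from the others, among the 4 highest libraries for 9 of the 18 mitosis members, while G.1 was among the 4 lowest for 14 and G.4 for 7. Foxm1 showed it most plainly, at 0.575, 4.88 and 0.970 CPM, where G.3 held the highest value of all 12 libraries. G.3 was also the library with 61.0% mitochondrial counts, with T and NK markers at 51.6 CPM and erythroid markers at 1460 CPM. Summed over the 19 mitosis members the level was 19.3, 40.8 and 21.3 CPM in arm G, with G.3 above M.6 and M2.1. Of the 11 Kupffer cell markers 11 were higher in arm G than in the model (median log2 fold change 0.64), of 7 endothelial markers 7 (median 0.40) and of 5 B and plasma cell markers 5 (median 0.98). Their sums in arm G were 819.9, 382 and 771, 248.5, 199 and 258 and 36.98, 35.8 and 40.9 CPM in that order of lists, so the Kupffer and endothelial sums of G.3 were the lowest of the arm. The part of these cells, or of the mitochondrial share, in the mitosis level was not tested.

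G1 and replication members in arm G were divided, 10 higher and 8 lower, with a median log2 fold change of 0.02 that was −0.24 without M.6 and G.3. E2f1 stood at 1.41, 1.25 and 0.831 CPM, with a log2 fold change of 0.94 ± 0.61 (SE) that was 0.58 without M.5 and 1.56 without M2.1, and its groups overlapped. Mcm3 stood at 1.62, 3.33 and 1.08 CPM in model liver and at 2.11, 6.24 and 1.80 CPM in arm G, where G.3 was far above the others. Its log2 fold change was 0.74 ± 0.64 (SE), and it ranged from −0.01 when G.3 was left out, through 0.43 when M2.1 was, to 1.30 when M.6 was. Outside the members, Btg2 stood at 483, 147 and 151 CPM, again above all model libraries, at a log2 fold change of 1.84 ± 0.47 (SE, unadjusted p = 0.00185, adjusted p = 0.9997 by edgeR). Fos and Jun, early transcription factors, had log2 fold changes of 1.94 ± 0.63 and 1.5 ± 0.58 (SE), and E2f2, an activating E2F factor, had one of 1.36 ± 0.46 (SE) with G.3 at 10.7 CPM. Of the further lists, the 23 replication genes split into 9 higher and 14 lower (median −0.12), the 30 mitosis genes into 14 and 16 (median −0.09), the 17 inhibitors into 7 and 10 (median −0.04), the 17 cyclins, kinases and E2F factors into 6 and 11 (median −0.10), the 25 mitogens and early factors into 13 and 12 (median 0.03), and the 14 p53 targets into 8 and 6 (median 0.08). The median of the other mitosis genes was thus nearer to that of all genes than the members' median of −0.71, and the difference between these lists was not tested.

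Between the arms, Mcm10 was higher and most mitosis members lower in arm G. Mcm10 stood at 3.19, 5.11 and 4.30 CPM in arm D and 5.49, 12.02 and 6.86 CPM in arm G, without overlap. For arm G against arm D the log2 fold change was 0.94 ± 0.42 (SE, unadjusted p = 0.043, adjusted p = 0.999 by edgeR), and 0.53 without G.3. Rrm1 was lower in arm G without overlap, at −0.43 ± 0.21 (SE, unadjusted p = 0.0659). Ccnd1 had overlapping values in the arms, with a log2 fold change of −0.27 ± 0.28 (SE). Mcm10 was the only member under an unadjusted p of 0.05, so 1 of 36 was higher and 0 lower, where edgeR called 0 genes (0%), DESeq2 called 5 and limma-voom 0, and 303 genes (2.45%) were higher and 120 (0.971%) lower before adjustment. The members' count ran from 0 to 3 as single libraries were left out, and the share of all genes from 1.25% to 7.19%. Of the 18 mitosis members 3 were higher and 15 lower, with a median log2 fold change of −0.59 that was −1.03 without G.3. The smallest p among them were those of Nusap1, at −1.52 ± 0.77 (SE, unadjusted p = 0.0712), and Mki67, at −1.10 ± 0.57 (SE, unadjusted p = 0.0761). Of the 18 G1 and replication members 7 were higher and 11 lower (median −0.17, and 0.02 without D.4). Mcm7 stood at 14.97, 10.2 and 11.7 CPM in arm D and 13.7, 16.6 and 14.7 CPM in arm G, with overlapping groups and a log2 fold change of 0.28 ± 0.27 (SE) that was 0.45 without D.1 and 0.16 without D.4. The 23 other replication genes split into 8 higher and 15 lower (median −0.17), with Chaf1a, a chromatin assembly factor, at −1.06 ± 0.46 (SE). The 30 other mitosis genes split into 14 higher and 16 lower (median −0.01). Among them Hjurp, the chaperone of the centromeric histone, had the smallest p, at 3.20 ± 1.36 (SE, unadjusted p = 0.036), with G.3 at 20.98 CPM and the other libraries of both arms between 0.485 and 0.918 CPM. Knl1, a kinetochore scaffold, was at −2.38 ± 1.03 and Stmn1, which takes microtubules apart, at −0.88 ± 0.39 (SE). Of the 11 Kupffer cell markers 0 were higher and 11 lower in arm G than in arm D (median −0.76), 3 of them at an unadjusted p under 0.05. Of the 7 endothelial markers 2 were higher and 5 lower (median −0.31), 2 of the lower ones at that level. The part of these cells in the mitosis level was not tested.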

How the data were processed

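Liver RNA was extracted with Trizol and made into NEBNext Ultra libraries, per the labels' protocols. The authors deposited 3 tables of raw read counts per gene, each of 6 libraries and all holding the model group, which were joined on the gene name into 12 libraries. Per gene the deposited tables also give log2 fold changes, p-values and their adjusted form, quoted only by that name. Aligner, counter and strand setting were not given in the sources used here, so overlapping and antisense genes cannot be told apart. DESeq2 and mm9, a mouse build, are named by the submitters' processing notes, so no gene coordinates come from the files. 36 columns of other values were not used.

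The test was that of edgeR 4.0.16 (R 4.3.3), with filterByExpr, TMM, 1 quasi-likelihood fit over 4 groups (8 residual degrees of freedom, common biological coefficient of variation 0.409) and Benjamini-Hochberg adjustment at 0.05. The fit was also run on simulated counts. Their spread was the same for all genes and smaller than in these data, and no library was made to differ. That run therefore checks the code and not the fit at the spread of these libraries. DESeq2 1.42.0 and limma-voom (limma 3.58.1) were among 8 alternatives, beside 12 that left out 1 library each. The members and lists were chosen with earlier results of these data known. Values per library are given for members with an unadjusted p under 0.05 in any comparison, the 2 smallest p per direction in each, and Ccnd1, Mki67, Top2a, Pcna and Cdk1. Those of Foxm1 and Ube2c, and single values of Plk1 and Cenpf, were added after they were seen. Of a further list up to 3 genes with the smallest p are named. Libraries of a group differed by more than sampling noise (chi-square per degree of freedom from 22.4 to 893). Whether each library is a separate animal is not labelled, and p-values cover only the spread between libraries. Motifs were searched with Python 3.11.15.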

Additional observations from a re-analysis of the deposited data

How the results depend on the processing

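Single members were recomputed for 21 pairs of a member and a comparison, those with an unadjusted p under 0.05 or among the 2 smallest p per direction, and not for the others. The main fit called 0 genes in each comparison, so no call could be lost, and keeping the side of the threshold means only staying uncalled. Direction and side were kept in 415 values, while 1 value reversed and 1 was called. Both exceptions were Ccnd1 in the model against normal, called by DESeq2 alone, and Mcm3 in arm G against the model, whose log2 fold change was −0.0097 without G.3 and at most 1.30, without M.6. In the model against normal, DESeq2 called 42 genes, a fit with no filter on low counts 3, and the fit without M.6 and G.3 called 1. There limma-voom had 3 members, and 4.3% of all genes, at an unadjusted p under 0.05. The mitosis median was 0.71 with the 2 groups alone, a fit that tested 28 members where the main fit tested 36. The G1 and replication median was 0.17 without M.6 and G.3. In arm D against the model DESeq2 called 14 genes. In arm G against the model it called 5. The members' count there was 1 of 30 tested with the 2 groups alone (0.936% of all genes) and 6 without M.6 and G.3 (4.67%). The medians without these libraries were −0.24 for G1 and replication and −1.35 for mitosis. Between the arms DESeq2 called 5 genes and the fit with no filter 1. The members' count was 2 by DESeq2 (4.99% of all genes), 0 by limma-voom (1.62%) and 4 without M.6 and G.3 (1.94%). The causes were not tested.

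Leaving out single libraries gave 0 to 6 called genes in the model against normal and 0 to 1 between the arms. The members' count ran from 1 to 10 in the model against normal and from 1 to 6 in arm D against the model. It ran from 1 to 5 in arm G against the model and from 0 to 3 between the arms. In that order, the share of all genes ran from 2.26% to 20.3%, 2.52% to 14.3%, 1.84% to 7.31% and 1.25% to 7.19%. The G1 and replication median ran from 0.0916 to 0.466 in the model against normal, from −0.08 to 0.29 and from −0.12 to 0.08 in arms D and G against the model, and from −0.28 to 0.02 between the arms. The mitosis median ran from 0.82 to 1.57, from −0.37 to 0.33, from −1.29 to −0.21 and from −1.03 to −0.42 in the same order. No paired analysis was possible because the numbers in the column names, such as M.5 and D.7, do not follow the replicate numbers of the labels. Few counts limit the mitosis members, at 255 to 683 counts per library in all.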
